A study of Mus musculus with 2 samples.

Results

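The tendon-like cells described here were fibroblasts of the mouse fracture callus whose transcripts included Tnmd, Thbs4 or both. A barcode was counted as tendon-like when, per 10000 of its UMIs (unique molecular identifiers, 1 count per captured RNA molecule), Tnmd and Thbs4 together reached 5, Col1a1 and Col3a1 together reached 50, Col2a1 was under 50, the osteoblast genes Ibsp, Alpl, Bglap, Bglap2 and Ifitm5 together were under 20, and the immune genes S100a8, S100a9, C1qa, C1qb and C1qc together were under 50. Of the 10075 barcodes of library MGJ with at least 200 genes, at most 20% mitochondrial UMIs and at least 2000 UMIs, 441 met the rule, which was 4.38% (exact 95% binomial interval 3.99% to 4.80%). In library MGJ2, 3 of 7000 such barcodes did, or 0.0429% (0.00884% to 0.125%). The cells were thus chosen by the measured levels of these 15 genes, which are given below only as a description.

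Single-cell RNA-seq with 10x Genomics 3′ chemistry was performed on callus, the repair tissue around a healing fracture, from male wild-type C57BL/6J mice aged 12 weeks with a transverse fracture of the mid-femur held by a needle in the marrow cavity. Mice were studied 10 days (n = 5) or 20 days (n = 5) after the fracture. The labels give neither of the 2 libraries a day and no barcode can be traced to its mouse, so each library is reported on its own and no comparison of days was made. With at most 1 library per condition there was no replicate check and no test, and all intervals are 95% intervals that cover counting error only. Library MGJ held 133863477 UMIs in 13460 kept barcodes, and 19 barcode sequences occurred in both libraries, 0 of them a tendon-like cell of MGJ.

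Tendon is built of parallel fibrils of type I collagen laid down by tenocytes, fibroblasts that carry load between muscle and bone. The transcription factor Scx marks the lineage from its progenitors onwards, the membrane protein tenomodulin (Tnmd) marks its maturing cells, and thrombospondin 4 (Thbs4) is a matrix protein of tendon and muscle. Small leucine-rich proteoglycans such as fibromodulin and decorin bind the collagen fibrils and regulate their width.

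The label was checked against tendon genes outside the rule. The levels of 14 of the 15 tendon genes compared were higher in the tendon-like cells than in the other fibroblasts of MGJ, which met the same rule but had Tnmd and Thbs4 under 5 (829 cells). Over all genes compared, 4541 of 11006 were higher. Scx, the tendon transcription factor, reached 117 CPM (counts per 1000000 UMIs, 109 to 125 by the exact Poisson interval) against 39.2 CPM in the other fibroblasts. Both sets were sequenced to a like depth, with medians of 16268 and 16168 UMIs per cell and of 4.52% and 4.53% mitochondrial UMIs. Each tendon-like cell was a fibroblast by its collagens as the rule demanded, with Col1a1 at 17483 CPM and Col3a1 at 17245 CPM over all 441 cells.

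Tnmd (chrX:133850980-133865577, GRCm38) was detected in 296 of the 441 tendon-like cells of MGJ. Its level per 10000 UMIs ran from 0 through a median of 4.65 to 79.0. Thbs4 (chr13:92751590-92794818, GRCm38) was detected in 419 cells, from 0 through a median of 11.8 to 162. Together the pair had a lowest value of 5.05, a median of 17.1 and a highest value of 237. Both genes were found in 274 cells, Thbs4 alone in 145 and Tnmd alone in 22, so Thbs4 was the gene through which most single-gene cells entered. The cells with Tnmd alone were shallower, with a median of 10982 UMIs against 16054 for Thbs4 alone and 16863 for both.

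**Figure D1:**
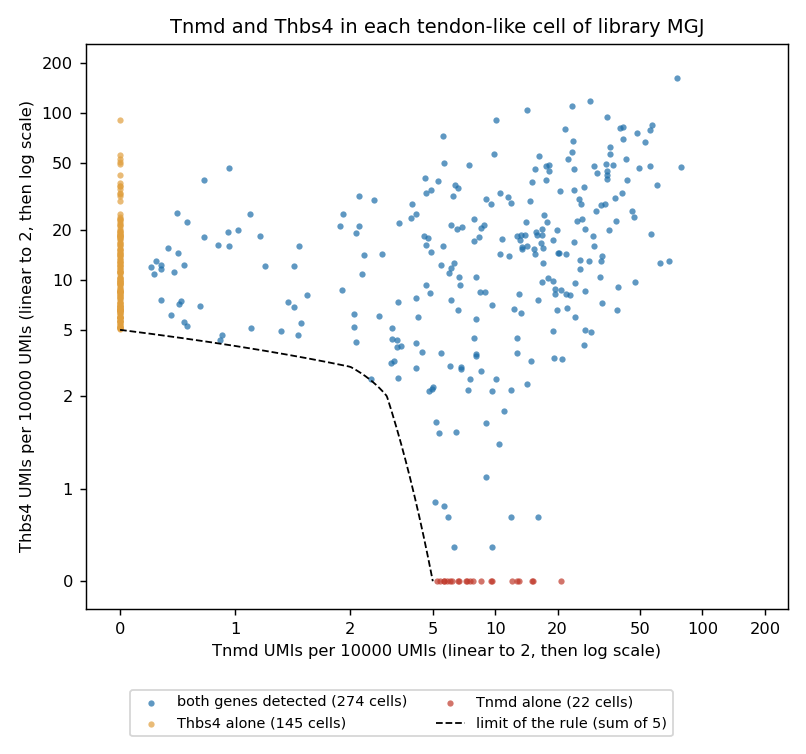
Each point is 1 of the 441 tendon-like cells of library MGJ, with its Tnmd UMIs on the x axis and its Thbs4 UMIs on the y axis, both per 10000 UMIs and on a scale that is linear to 2 and logarithmic above. The dashed line is the limit of the rule, a sum of 5, and the 145 cells with Thbs4 alone lie on the left edge, the 22 with Tnmd alone on the lower edge and the 274 with both in between.

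The limit of 5 cut through a continuous range. Just inside it lay 32 tendon-like cells at 5 to 6 per 10000 UMIs and 36 at 6 to 7, and just outside it 37 other fibroblasts at 4 to 5. Of the other fibroblasts, 476 had 0 UMIs of either gene. A further 117 barcodes reached 5 per 10000 UMIs but were left out: of the 558 in all, 83 had Col2a1 at 50 or more, 31 the immune genes at 50 or more, 15 the osteoblast genes at 20 or more and 7 too little collagen, with some barcodes failing on more than 1 count.

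Shares of cells with a UMI were compared after each cell was thinned at random to 2000 UMIs. Thbs4 was then seen in 80.3% of the tendon-like cells (76.2% to 83.9%), in 11.9% of the other fibroblasts and in 4.04% of chondrocytes. In neutrophils, which should lack the gene and whose median was 3254 UMIs before thinning, the share was 1.03% (0.668% to 1.52%). Tnmd was seen in 47.4% of the tendon-like cells (42.6% to 52.2%) and in 0.412% of neutrophils (0.198% to 0.756%). The share for Scx, which the rule did not use, was 20.2% (16.5% to 24.2%) in the tendon-like cells and 4.95% in the other fibroblasts, and it was 0 of 2427 neutrophils, which allows a share of up to 0.124%.

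Genes outside the rule were then compared between the tendon-like cells and the other fibroblasts of MGJ. A gene counted as higher or lower past a 2-fold ratio of summed levels, among the 11006 genes with at least 50 UMIs over both sets. By that measure 128 genes, 1.16% of those compared, were higher in the tendon-like cells and 214, or 1.94%, were lower. The median ratio of all genes compared was 0.966.

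Of the 15 tendon genes compared, 7 were at least 2-fold higher and 0 lower, with a median ratio of 1.96. Keratocan (Kera, chr10:97606879-97613692, GRCm38), a keratan sulphate proteoglycan of cornea and tendon, stood at 156 CPM (147 to 165) in the tendon-like cells and 2.28 CPM (1.56 to 3.21) in the other fibroblasts, a ratio of 68.4 (48.2 to 100). It was carried by 123 of the 441 cells, and the cell with the most held 4.39% of its UMIs. Cilp2, a matrix protein of the cartilage intermediate layer family, was 16.8 times higher (13.0 to 22.1), at 77.7 against 4.62 CPM. Its relative Cilp reached 259 against 74.0 CPM, a ratio of 3.50 (3.25 to 3.78). Scx was 2.99 times higher (2.68 to 3.33) and Fmod, fibromodulin, 2.69 times (2.61 to 2.77), at 1319 against 490 CPM. The ratios were also taken without the 400 other fibroblasts that held the inflammatory genes Cxcl5 and Ptx3 at 5 or more per 10000 UMIs. All 441 tendon-like cells were kept, with or without those genes. Scx then stood at 1.77, Fmod at 1.65 and Kera at 37.1.

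Apart from Chodl, the remaining tendon genes compared lay nearer to the other fibroblasts. The homeobox factor Mkx, which drives tendon collagen genes, stood at 16.4 against 8.53 CPM (ratio 1.92, 1.48 to 2.49) and was detected in 84 of the tendon-like cells. Comp, the cartilage oligomeric matrix protein, was just past the limit at 2.02 (1.96 to 2.08), and at 1.35 against the fibroblasts without Cxcl5 and Ptx3. Tnc, the matrix glycoprotein tenascin C, was the 1 tendon gene below 1, at 685 against 806 CPM. Chodl, chondrolectin, was 28.0 times higher (12.4 to 78.3), but only 21 tendon-like cells held a UMI of it and 1 of them held 31.9% of the total.

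Some of these genes were also high outside the fibroblasts. Comp stood at 9217 CPM in the chondrocytes of MGJ, above the 1258 CPM of the tendon-like cells, and Chad, chondroadherin, at 643 against 43.9 CPM. Chad was 6.17 times higher in the tendon-like cells than in the other fibroblasts, with 20.7% of its UMIs in 1 cell. Fmod in chondrocytes reached 1191 CPM, close to the tendon-like level. Kera, Cilp and Scx were low there, at 1.33, 12.7 and 10.2 CPM. In the 109 osteoblasts of MGJ Scx stood at 39.3 CPM, the level of the other fibroblasts, and Kera at 6.01 CPM.

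**Figure D2:**
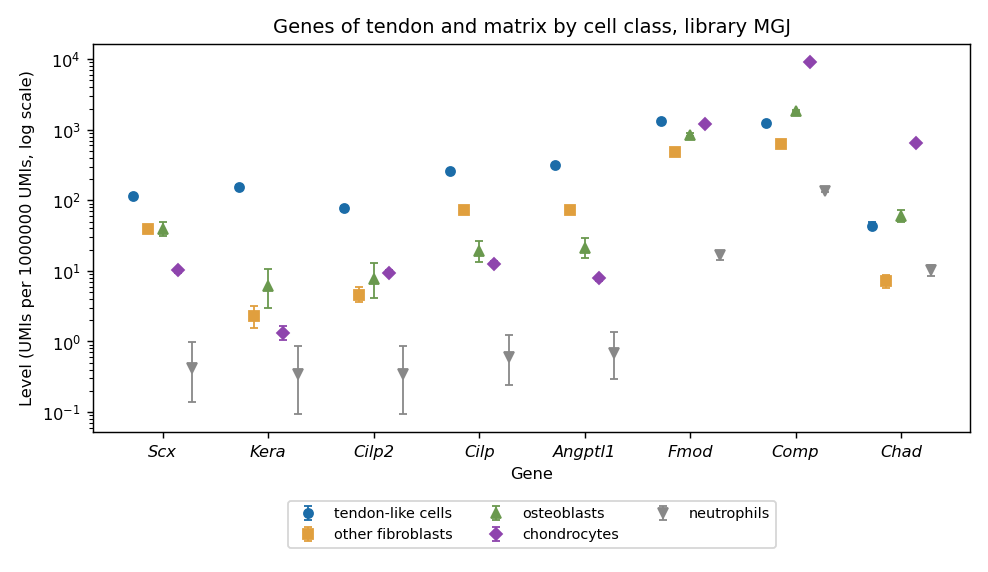
Levels of 8 genes (y axis, UMIs per 1000000 UMIs, log scale) in 5 cell classes of library MGJ, with exact Poisson 95% intervals as bars. Kera, Cilp2, Cilp, Angptl1 and Scx are highest in the tendon-like cells, whereas Comp and Chad are highest in chondrocytes, at 9217 and 643 CPM.

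The 3 further genes named as markers of these cells but not used in the rule were each higher by less than 2-fold. Cthrc1, a secreted protein of collagen-producing fibroblasts, stood at 2016 against 1022 CPM (ratio 1.97, 1.93 to 2.02). Asporin (Aspn), a proteoglycan that binds collagen, stood at 1781 against 1076 CPM (1.65, 1.62 to 1.69). Periostin (Postn), a matrix protein of healing connective tissue, stood at 4384 against 3428 CPM (1.28, 1.26 to 1.30). Postn was detected in 98.0% of the tendon-like cells and of the other fibroblasts alike.

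The small leucine-rich proteoglycans were higher as a group. Of the 14 members, 13 were above 1, 6 were at least 2-fold higher and 1, Podnl1, was at least 2-fold lower, with a median ratio of 1.70, beside 4541 of 11006 above 1 over all genes compared. Besides Kera, Chad and Fmod, the 2-fold limit was passed by Ecm2 (2.25), Prelp (2.11) and osteoglycin, Ogn (2.10, 629 against 300 CPM). These 3 stood at 1.64, 1.61 and 1.86 against the fibroblasts without Cxcl5 and Ptx3, and Podnl1, at 0.4995, lay at the limit itself. Decorin (Dcn), which binds type I collagen, was 1.32 times higher, lumican (Lum) 1.24 times and biglycan (Bgn) 1.08 times, and the 3 were detected in 98.9%, 94.1% and 99.8% of the tendon-like cells. Members that lie side by side in the genome did not share a ratio: on chromosome 10 Dcn, Lum, Kera and Epyc gave 1.32, 1.24, 68.4 and 1.75, and on chromosome 13 Ecm2, Aspn, Omd and Ogn gave 2.25, 1.65, 1.21 and 2.10.

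Collagens and their processing differed little. Of 8 fibrillar collagens outside the rule, 0 passed 2-fold in either direction, with Col1a2 at 1.32, Col5a1 at 1.08, Col11a1 at 1.68 and Col5a3 at 0.674. Of the 21 genes that modify, cross-link or trim collagen, 0 passed it and the median was 1.05. Col18a1, a basement membrane collagen, was lower at 44.2 against 157 CPM (0.283, 0.251 to 0.317). In the elastic fibre list of 17 genes, Mfap4 was 2.67 times higher and Efemp1 was lower at 0.485. Against the fibroblasts without Cxcl5 and Ptx3, Efemp1 turned to 2.07 and Mfap4 stood at 4.42. That comparison kept the 157 tendon-like cells with Cxcl5 and Ptx3. Efemp1 stood at 33.4 CPM in them and at 6.89 CPM in the other 284.

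Beyond the lists, the genes with the largest ratios included Angptl1, a secreted angiopoietin-like protein, at 312 against 72.9 CPM (4.28, 3.98 to 4.61) and with a UMI in 76.2% of the tendon-like cells. Ccn3, a matricellular protein, was 4.08 times higher, the prostacyclin synthase Ptgis 4.67 times, and the carboxypeptidase Cpm 5.76 times. Zfp185 (6.12), Palmd (4.47), the potassium channel Kcnk1 (3.11) and the fibulin Fbln7 (3.11) completed the 12 highest genes. Ptgis and Kcnk1 were higher still in osteoblasts, at 319 and 65.0 CPM against 79.4 and 15.5 CPM in the tendon-like cells. Against the fibroblasts without Cxcl5 and Ptx3, Kcnk1 was at 1.91, Palmd at 2.76, Ptgis at 2.88, Zfp185 at 3.94 and Ccn3 at 6.94.

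Genes of smooth muscle and pericytes were lower over the tendon-like cells as a whole. The 10 listed summed to 427 CPM against 1230 CPM in the other fibroblasts, but to 1345 CPM (1206 to 1495) in the 22 tendon-like cells with Tnmd alone. Of 9 smooth muscle and pericyte genes compared, 8 were at least 2-fold lower in the tendon-like cells and the median was 0.253, with Cspg4 at 0.998 the exception. Smooth muscle actin, Acta2, stood at 314 against 847 CPM (0.371, 0.355 to 0.388), and the pericyte gene Rgs5 at 17.5 against 188 CPM, with 87.2% of the tendon-like UMIs in 1 cell. Barcodes with Rgs5, Myh11 and Notch3, or haemoglobin genes, at 5 or more per 10000 UMIs were 5 of the 441 tendon-like cells (1.13%) and 58 of the 829 other fibroblasts. Without them 6 of the 9 were still at least 2-fold lower and the median was 0.441, while Rgs5 moved to 0.736 and Mcam to 0.9503. Of the erythroid genes, 4 of 4 were at least 2-fold lower with these barcodes and 0 without. Rgs5 and Notch3, which are among the 9, and the haemoglobin genes were used to choose the barcodes. A change in their own ratios therefore follows in part from that choice.

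Among 18 matrix proteases and inhibitors, 2 were at least 2-fold lower, Mmp13 and Mmp9, and 0 higher, with a median ratio of 0.859. Mmp13, the collagenase of cartilage and bone turnover, stood at 615 against 1698 CPM (0.362, 0.351 to 0.374), and its ratio was 0.512 among cells with Cxcl5 and Ptx3 alone. Mmp10, stromelysin 2, stood at 9.98 against 57.7 CPM, and Mmp9 at 9.06 against 40.3 CPM with 46.4% of the tendon-like UMIs in 1 cell. The inhibitor Timp2 was at 1.53. The 12 lowest ratios were taken among genes with at least 100 UMIs in the other fibroblasts and a UMI in 10% or more of them. That set of 12 was completed by Hbb-bs (0.104), Notch3 (0.183), the anchoring fibril collagen Col7a1 (0.222), Aldh1a3 (0.245), Areg (0.247), Cnn1 (0.253), Actg2 (0.260), Des (0.269) and Ifitm1 (0.273). Of these, Areg stood at 1.10 against the fibroblasts without Cxcl5 and Ptx3, Hbb-bs at 0.849 without the mural and erythroid barcodes, and Ifitm1 at 0.592 with a limit of 2 per 10000 UMIs for Tnmd and Thbs4. Within the tendon-like cells, all kept there, Areg was at 42.1 CPM with and 10.4 CPM without Cxcl5 and Ptx3.

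Few genes of the signalling lists passed 2-fold, too few to set the lists apart, beside 1.16% higher and 1.94% lower over all genes compared. The TGF-beta list had 0 of 14 past it in either direction and a median of 1.03, with Tgfb3 at 1.55 and Tgfb1 at 0.829. In the GDF and BMP list, 1 of 14 genes compared was higher, Bmp4 (3.38), and 1 lower, the BMP antagonist Grem1 (0.360). In the Wnt list, 1 of 14 was higher, the secreted inhibitor Dkk2 (5.27), and 2 were lower, Wnt5a (0.317) and Sfrp4 (0.454). Against the fibroblasts without Cxcl5 and Ptx3, Grem1 stood at 0.966 and Sfrp4 at 1.01. Bmp4 and Dkk2 were detected in 5.44% and 8.39% of the tendon-like cells. Igf1, a growth factor that stimulates collagen synthesis in tendon, stood at 1023 against 543 CPM (1.89, 1.83 to 1.95) and was found in 90.7% of them. No cell cycle gene of 12 passed 2-fold, and the median of that list was 1.13.

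The mechanosensitive channel Piezo1, which the study followed, did not separate the tendon-like cells. Its level was 109 CPM (102 to 117) in them, 109 CPM in the other fibroblasts and 109 CPM in chondrocytes, and the interval of its ratio to the other fibroblasts ran from 0.920 to 1.09. Piezo2 stood at 62.1 against 42.7 CPM (1.45, 1.29 to 1.64) and at 9.48 CPM in chondrocytes. Of 9 mechanosensing genes compared, 0 passed 2-fold, with Ccn1 at 1.52 and Ccn2 at 1.47. Apoe stood at 340 against 236 CPM (1.44, 1.37 to 1.52), with 28.3% of its UMIs in 1 tendon-like cell.

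**Figure D3:**
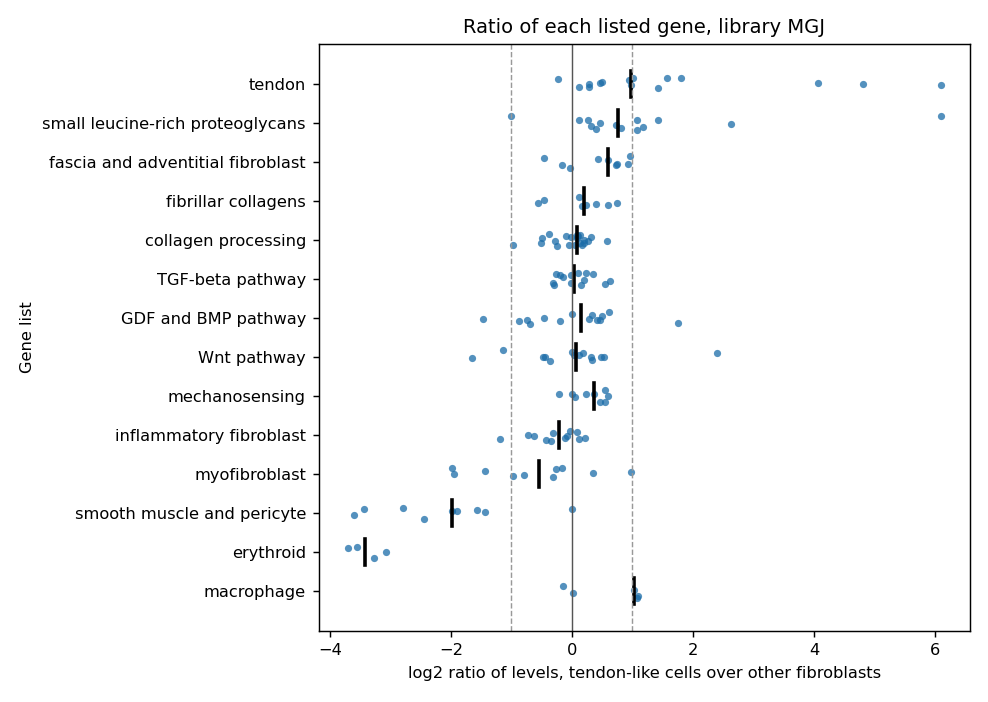
Each point is 1 gene outside the rule with at least 50 UMIs over both sets, at its log2 ratio of levels between the tendon-like cells and the other fibroblasts of library MGJ (x axis), in 14 gene lists (y axis). Thick bars mark medians and dashed lines the 2-fold limits. The tendon and proteoglycan lists have medians of 1.96 and 1.70 as ratios, and the smooth muscle and pericyte list one of 0.253.

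Markers of other cell types were examined in the tendon-like cells. The muscle genes Pax7, Myf5, Myod1 and Myog had 0 UMIs each, which allows up to 0.394 CPM, and the 12 skeletal muscle genes summed to 17.2 CPM against 51.1 CPM in the other fibroblasts. Only 3 of the 12 had enough UMIs to be compared, with 2 at least 2-fold lower and 1 above 1. The list includes Des, which is also in the smooth muscle and pericyte list. The fascia and adventitial fibroblast list, with 0 of 9 genes past 2-fold, 6 above 1 and a median ratio of 1.52, summed to 1831 against 1422 CPM. The endothelial list summed to 24.8 against 18.4 CPM, the lymphocyte list to 11.2 CPM and the neutrophil list outside the rule to 11.6 CPM, against 6633 CPM in neutrophils themselves. The 11 chondrocyte genes other than Col2a1 summed to 1631 CPM in the tendon-like cells, 1306 CPM in the other fibroblasts and 32103 CPM in chondrocytes. Col2a1, which the rule capped, stood at 522 CPM in the tendon-like cells and 549 CPM in the other fibroblasts.

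Besides tendon, and with the limit of 5 for Tnmd and Thbs4, the macrophage list was the 1 cell type list with genes at least 2-fold higher. Of 5 genes outside the rule 3 were past 2-fold, Lyz2 (537 against 255 CPM), Adgre1 and Mrc1, and the list summed to 582 CPM against 292 CPM and to 3187 CPM in neutrophils. At limits of 10 and of 2 only 1 of the 5 was at least 2-fold higher, with medians of 1.05 and 1.71. The myofibroblast list then had 1 of 10 higher at both limits, the fascia list 1 of 9 at 10 and the skeletal muscle list 1 of 3 at 2. Adgre1 had 32 UMIs in the tendon-like cells with Cxcl5 and Ptx3 and 58 in those without, and Mrc1 25 and 28. With the barcodes of the highest Scrublet doublet scores removed, Lyz2 fell to a ratio of 1.05 while Adgre1 and Mrc1 stood at 3.18 and 3.93. The cell with the most held 23.0% of the Lyz2 UMIs of the tendon-like cells. With those barcodes removed 8 of the 15 tendon genes were at least 2-fold higher and Kera was at 75.4.

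The tendon-like cells were not uniform. They were split by their summed level of Tnmd and Thbs4 per 10000 UMIs into 135 cells at 5 to 10, 114 at 10 to 20, 126 at 20 to 50 and 66 at 50 and over. Both genes were detected in 35.6%, 51.8%, 83.3% and 93.9% of these cells, at median depths between 14748 and 16610 UMIs. Because the split used genes of the rule, it is a description of how the other genes ran along it.

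Kera climbed most steeply, from 5.89 CPM (3.22 to 9.89) in the lowest set through 16.9 and 111 to 882 CPM (825 to 942) in the highest. That was a ratio of 150 (88.8 to 275). Scx stood at 55.2, 62.0, 160 and 278 CPM along the 4 sets, a ratio of 5.05 (4.09 to 6.26). The first pair did not differ beyond its counting intervals, and the increase came above 20 per 10000 UMIs. Mkx followed at 8.42, 10.9, 15.4 and 48.5 CPM.

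Fmod was flat over the first sets, at 795 and 776 CPM, and then reached 1500 and 3240 CPM. Cilp2 rose from 21.1 to 319 CPM, Ptgis from 25.7 to 301 CPM, Cilp from 123 to 618 CPM, Angptl1 from 173 to 614 CPM and Ccn3 from 177 to 922 CPM. Chad rose from 13.1 to 236 CPM, with 29.0% of the highest set's UMIs in 1 cell. The type I collagen gene Col1a1, a rule gene, went from 15065 to 26474 CPM. Postn did not follow, at 4222, 4583, 4622 and 3847 CPM, and Piezo1 stood between 99.4 and 121 CPM in the 4 sets.

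Several inflammatory genes ran the other way. Cxcl5, a neutrophil-recruiting chemokine, stood at 1915, 1684, 628 and 67.3 CPM along the sets, and Ptx3, the pattern recognition protein pentraxin 3, at 1175, 707, 515 and 109 CPM. The acute-phase gene Saa3 went from 2210 to 58.4 CPM, Mmp13 from 900 to 228 CPM, the chemokine Cxcl1 from 6167 to 1785 CPM and the Wnt antagonist Sfrp1 from 484 to 41.6 CPM. The growth factor Ereg stood at 208, 296, 48.8 and 4.95 CPM. The BMP antagonist Grem1 went from 46.7 CPM to 0 UMIs in the highest set.

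**Figure D4:**
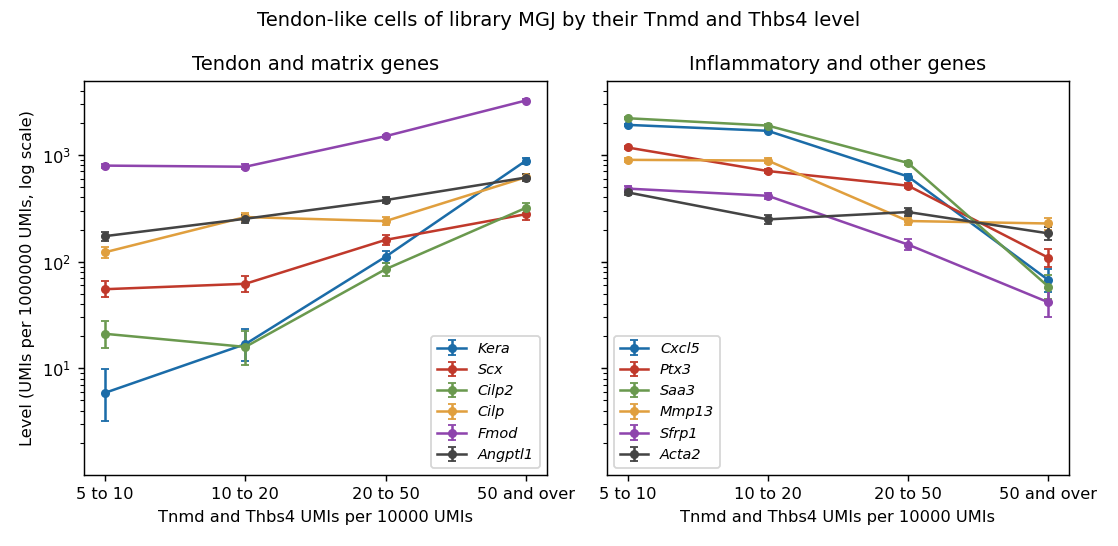
Levels (y axis, UMIs per 1000000 UMIs, log scale, with exact Poisson 95% intervals) of 12 genes in the tendon-like cells of library MGJ, divided by their Tnmd and Thbs4 UMIs per 10000 (x axis, 135, 114, 126 and 66 cells). Kera increases from 5.89 to 882 CPM and Scx from 55.2 to 278 CPM, while Cxcl5 decreases from 1915 to 67.3 CPM and Ptx3 from 1175 to 109 CPM.

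The share of tendon-like cells with Cxcl5 and Ptx3 together at 5 or more per 10000 UMIs followed the same order, at 50.4% (41.6% to 59.1%), 41.2%, 28.6% and 9.09% (3.41% to 18.7%). Over all tendon-like cells it was 35.6% (157 cells), and over the other fibroblasts 48.3% (400 cells). Within the tendon-like cells the pair of inflammatory genes was thus most frequent in those lowest in Tnmd and Thbs4.

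The 157 cells with Cxcl5 and Ptx3 were compared with the 284 without. Their median sum of Tnmd and Thbs4 was 11.3 against 22.8 per 10000 UMIs, and their median depth 18676 against 14692 UMIs. Scx stood at 36.9 CPM (30.5 to 44.3) in the cells with Cxcl5 and Ptx3 and at 172 CPM (160 to 185) in those without. Kera stood at 27.9 against 244 CPM, Cilp2 at 7.71 against 126 CPM, Fmod at 528 against 1866 CPM and Comp at 638 against 1687 CPM. Aspn and Cthrc1 were also lower in the inflammatory cells, at 1178 against 2197 CPM and at 1378 against 2457 CPM.

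Genes not used to divide them moved with Cxcl5 and Ptx3. Il6 stood at 497 against 29.1 CPM, Saa3 at 2818 against 489 CPM, the monocyte chemokine Ccl2 at 5619 against 1652 CPM and Cxcl1 at 7924 against 2645 CPM. Postn (4442 against 4344 CPM) and Igf1 (938 against 1083 CPM) differed little between the 2 kinds of cells.

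**Figure D5:**
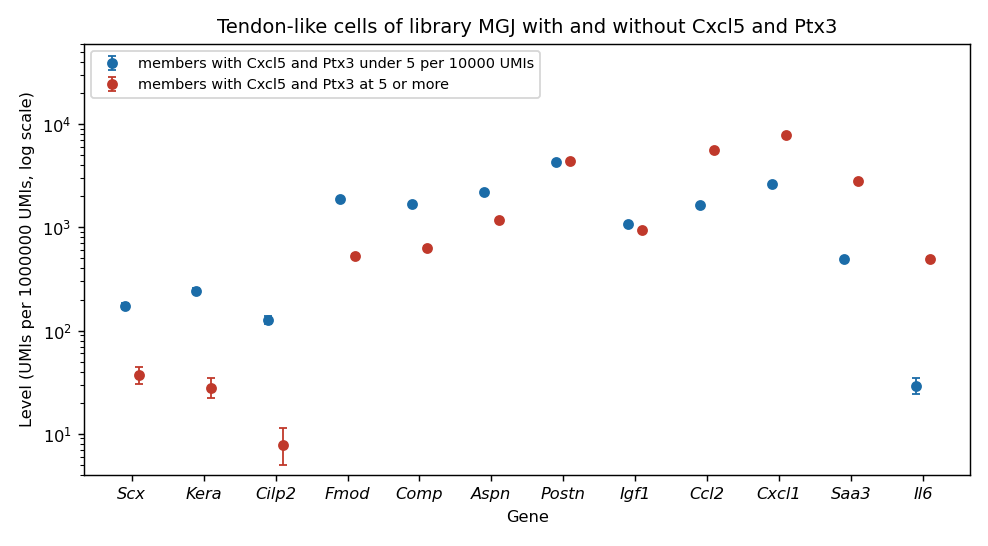
Levels of 12 genes (y axis, UMIs per 1000000 UMIs, log scale, with exact Poisson 95% intervals) in the tendon-like cells of library MGJ without (284 cells) and with (157 cells) Cxcl5 and Ptx3 at 5 or more per 10000 UMIs. Scx, Kera and Cilp2 are lower in the cells with Cxcl5 and Ptx3, Postn is at 4442 against 4344 CPM, and Il6, Saa3, Cxcl1 and Ccl2 are higher.

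Since inflammatory cells were more common among the other fibroblasts, the ratios were taken again within each kind. Among cells without Cxcl5 and Ptx3, 8 of the 15 tendon genes were at least 2-fold higher in the tendon-like cells, and among cells with them 7 were. Over all genes compared 1.16% were higher in the comparison of all cells. That share is not given here for either kind, so the counts of 8 and 7 have no background of their own. Kera was at 58.1 and 51.6, Scx at 2.60 and 2.50 and Fmod at 2.34 and 2.47 in the 2 kinds, and Acta2 was lower in both, at 0.339 and 0.398. Cilp2 and Chad differed more: Cilp2 was at 18.3 without and 2.998 with Cxcl5 and Ptx3, and Chad at 7.78 and 2.16. The order along Tnmd and Thbs4 was also found among the cells without Cxcl5 and Ptx3 alone, where the highest set over the lowest gave 108 for Kera, 2.72 for Scx and 2.66 for Fmod but 0.601 for Mmp13.

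Cells with 1 gene of the pair differed from one another. Those with Tnmd alone (22 cells) held Scx at 169 CPM (122 to 227) and those with Thbs4 alone (145 cells) at 33.8 CPM (27.0 to 41.7), whereas cells with both stood at 158 CPM. Aspn was also higher with Tnmd alone, at 2372 against 1109 CPM, as was Cthrc1 at 2521 against 1278 CPM. Cilp was lower there, at 47.0 CPM with Tnmd alone and 279 CPM with Thbs4 alone. Kera was highest where both were found, at 240 CPM, and stood at 11.8 CPM with Thbs4 alone. It had 0 UMIs with Tnmd alone, but that set held only 255072 UMIs, too few to set it apart from 11.8 CPM. Cells with both were also most frequent in the sets highest in Tnmd and Thbs4, where Kera was highest.

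The 6 genes highest with Tnmd alone were Klf2 (600 against 119 CPM), Fos (1721 against 376 CPM), Id3 (419 against 98.6 CPM), Egr1 (1196 against 288 CPM), Mest and Col11a1. Among these 6 genes, 1 cell held up to 33.3% of the UMIs of that set, which had 22 cells and a median of 10982 UMIs. Genes highest with Thbs4 alone included Sfrp4, Prg4, Ereg, Pf4 and Ccl20. Prg4, lubricin, the surface lubricant of joints and tendon sheaths, stood at 513 CPM with Thbs4 alone, 7.84 CPM with Tnmd alone and 141 CPM with both, and 1 cell held 31.5% of its UMIs over all tendon-like cells. The share of cells with Cxcl5 and Ptx3 was 60.7% with Thbs4 alone (52.2% to 68.7%), 22.7% with Tnmd alone (7.82% to 45.4%) and 23.4% with both. The 6 genes highest with Tnmd alone were lower in tendon-like cells with Cxcl5 and Ptx3, with Fos at 356 against 1018 CPM without. Scx was also lower there, at 36.9 against 172 CPM. Sfrp4, Ereg, Pf4 and Ccl20 were higher there, with Ereg at 362 against 17.1 CPM, but Prg4 was at 225 against 286 CPM. These divisions of the cells overlap, and their parts in the values were not tested.

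Library MGJ2 held by the same rule 3 tendon-like cells and 8 others, beside 18 osteoblasts and 132 chondrocytes. Its 3 tendon-like cells had 11295, 14010 and 25736 UMIs. The first had 9 UMIs of Tnmd and 1 of Thbs4, the second 4 and 20, and the third 0 and 14. The second also held 3 UMIs of Kera, 2 of Scx and 8 of Cilp2, of which the other two had 0, and Fmod was found in all 3 with 15, 21 and 19 UMIs. Over all kept barcodes Tnmd stood at 73.1 CPM in MGJ and 1.04 CPM (0.797 to 1.33) in MGJ2, and Thbs4 at 131 and 1.88 CPM (1.55 to 2.26). The day, the mice and the dissection of the 2 libraries cannot be told apart here.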

How the data were processed

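The submitters' processing notes name GRCm38, Cell Ranger and Seurat, and the file headers give Cell Ranger 4.0.0. The authors deposited UMI counts per gene and barcode, filtered to cell barcodes and not normalized. Gene positions came from GENCODE M21, in which 32235 of 32285 gene identifiers were found.

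Barcodes with under 200 genes, over 20% mitochondrial UMIs or under 2000 UMIs were left out, and library MGJ kept 10075 of 14295 and MGJ2 7000 of 8009. Osteoblasts met the rule's collagen, Col2a1 and immune limits with the osteoblast genes at 20 or more. Chondrocytes had Col2a1 at 50 or more and the immune genes under 50. Neutrophils had S100a8 and S100a9 at 50 or more, C1q genes under 5, and Col1a1 with Col3a1 and Col2a1 under 50, all per 10000 UMIs.

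Levels are summed UMIs per 1000000 (CPM) with exact Poisson intervals, ratios have exact conditional binomial intervals and shares Clopper-Pearson intervals. Genes named beyond the 32 lists were the 12 in each direction with the largest ratio among genes that had at least 100 UMIs in the higher set and were seen in 10% or more of its cells, and the 6 in each direction between cells with Tnmd alone and Thbs4 alone, of which 1 is not reported here. The members, lists and tests were chosen with earlier results of these data known. The ratio calculation was tested on simulated data.

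Doublets were kept. The automatic threshold of Scrublet (scanpy 1.11.5) called 0 of 13460 barcodes in MGJ, so as an alternative the 1477 highest scores (11.0%) in MGJ and 505 (6.47%) in MGJ2 were removed, of which 47 were tendon-like. Python 3.11.15, numpy 2.4.6, scipy 1.17.1, pandas 2.3.3 and matplotlib 3.10.9 were used.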

Additional observations from a re-analysis of the deposited data

Results flagged for a closer look

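Tnmd and Thbs4 were also found in barcodes outside the comparisons. The 835 barcodes of MGJ removed for few genes or mitochondrial UMIs held 173 UMIs of the pair, 120 CPM (103 to 139). The 3385 kept barcodes of MGJ under 2000 UMIs held 125 UMIs, 26.0 CPM (21.7 to 31.0), and 65 of them reached 5 per 10000 UMIs. The 806 kept barcodes of MGJ2 under 2000 UMIs held 10 UMIs, 8.21 CPM (3.94 to 15.1). Each value was above the limit of 3 UMIs that a count of 0 allows. These barcodes were not assigned to a cell class.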

How the results depend on the processing

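The number of tendon-like cells in MGJ lay between 306 and 610 over the 8 alternatives that changed the limits or removed doublets, against 441. In MGJ2 it was 1, against 3, with Tnmd and Thbs4 at 10 or more and with osteoblast genes under 5 per 10000 UMIs. The counts of genes past 2-fold, 128 higher and 214 lower, became 414 and 656 among genes with at least 10 UMIs and 45 and 84 among genes with at least 200 UMIs. They became 60 and 128 among cells with Cxcl5 and Ptx3 alone, an alternative added after the data were seen, as were leaving those cells or the mural and erythroid barcodes out of both sets. The choice of comparison cells moved single genes most. With Cxcl5 and Ptx3 fibroblasts left out of the other fibroblasts alone, 76 of 282 ratios crossed 1, and Saa3 (1.79), Efemp1 (2.07), Sfrp4 (1.01), Areg (1.10) and Ereg (1.56) turned from at least 2-fold lower to higher. Scx was then at 1.77 and Fmod at 1.65. The 157 tendon-like cells with Cxcl5 and Ptx3 were kept in that comparison. Saa3 stood at 2818 CPM in them against 489 CPM in the other 284, and Ereg at 362 against 17.1 CPM. Efemp1, Sfrp4 and Areg were also higher in the 157. Acta1 turned to 1.65 with Tnmd and Thbs4 at 2 or more per 10000 UMIs, and Ccl20 to 0.662 at 10 or more. Prg4, 0.898 between the highest and the lowest set of tendon-like cells, was 3.36 with the highest Scrublet scores removed. The cause of these changes was not tested. The direction of Kera, Cilp2, Cilp, Scx, Fmod and Acta2 was kept under every alternative run. No paired analysis was possible because the labels give neither library a group or a replicate number. With 1 library the spread between mice is unknown, and genes near the level of free RNA in neutrophils were not resolved at this depth.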
